A study of Homo sapiens with 18 samples.

Results

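Among RNAs recovered with MYC, 3 small non-coding RNA genes were followed here: RPPH1, the RNA of ribonuclease P, RMRP, the RNA of ribonuclease MRP, and SCARNA28, a small Cajal body-specific RNA. They were taken by name, and their peaks were those of the deposited lists that overlapped the RefSeq span of the gene in hg38 by at least 1 bp. That gave 6 of 2340 peaks, of which 2 were among the 103 peaks of the 3A list, 1 was among the 88 of the 7A list and 3 were among the 2149 of the wild-type (WT) list. The genes were chosen by measured values of these lists, namely a low fold enrichment beside a high −log10 q, the width of the peaks and the share of the gene they covered, so these values are described without a test. Of all 59792 placed genes in the annotation, 0.142% were overlapped by a 3A peak, 0.115% by a 7A peak and 2.75% by a WT peak. Of the 3888 small non-coding RNA genes among them, 0.129% were overlapped in 3A, 0.0257% in 7A and 0.514% in WT. These shares are background, and nothing is read from the choice of genes against them.

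In eCLIP, an enhanced form of crosslinking and immunoprecipitation, ultraviolet light fixes proteins to the RNA they touch, and RNA recovered with the protein is read by sequencing. The host cells were U2OS, derived from a human osteosarcoma, in which MYC had been knocked out. They made MYC 3A, MYC 7A or wild-type MYC when given doxycycline, and the residues altered in 3A and 7A are not stated in the labels. For each allele, 2 libraries from FLAG immunoprecipitation and 1 input without antibody came from cells given doxycycline at 1 µg/mL for 24 h, and the same number from cells given PBS, 18 libraries in all. The 3 lists used here come from the doxycycline-treated cells, 1 list per allele, so no value below has a replicate check. No list of PBS-treated cells was used, and no value measured without induced MYC stands beside these. Whether the knockout line is 1 clone is not stated in the labels.

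Ribonuclease P trims the leader from precursor transfer RNAs, and in humans its RNA subunit works with a set of POP and RPP proteins. Ribonuclease MRP is a related particle that shares most of these proteins and cuts precursor ribosomal RNA in the nucleolus. Both RNAs are made by RNA polymerase III from promoters that lie upstream of the gene and carry a TATA box. Small Cajal body-specific RNAs belong to a class that guides the chemical modification of spliceosomal RNAs, and many are processed out of the introns of larger genes. MYC itself is a transcription factor that binds DNA with MAX at E-box motifs.

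RPPH1 spans 341 bp on chromosome 14, from 20343071 to 20343411, and PARP2, which encodes a poly(ADP-ribose) polymerase, starts 223 bases beyond its first base in the opposite direction. RMRP spans 270 bp on chromosome 9, from 35657750 to 35658019, and CCDC107 starts 272 bases beyond its first base, also divergently. The peaks in both genes lay on the minus strand, which is the strand of both RNAs. SCARNA28 spans 194 bp on chromosome 7, from 98881697 to 98881890, inside the span of TRRAP, which encodes a large scaffold subunit of histone acetyltransferase complexes and a partner of MYC. Its peaks lay on the plus strand. The annotation gives no exons, so whether SCARNA28 lies in an exon or an intron of TRRAP was not determined. The first 33 bases of SCARNA28 overlap MIR3609, and no peak reached them.

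The start of RPPH1 is printed because the WT peak ran almost to the first base of the RNA, and the stretches before RPPH1 and RMRP because the genes share a feature there that the choice of genes did not use. The sequences are from RefSeq (GRCh38.p14), from the promoter windows of the divergent neighbours PARP2 and CCDC107, turned to the strand of the RNA. In the first line capitals mark the 25 of 27 bases that lay inside the WT peak, and in the other lines capitals mark the letters TATAA.
RPPH1 start, chr14:20343385-20343411, minus strand: atAGGGCGGAGGGAAGCTCATCAGTGG
RPPH1 upstream, chr14:20343412-20343511, minus strand: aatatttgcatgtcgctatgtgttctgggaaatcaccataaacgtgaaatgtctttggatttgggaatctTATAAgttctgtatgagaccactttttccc
RMRP upstream, chr9:35658042-35658119, minus strand: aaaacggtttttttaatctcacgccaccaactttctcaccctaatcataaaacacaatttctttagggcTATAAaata
TATAA stood 26 to 30 bases before the first base of RPPH1 and 27 to 31 bases before that of RMRP. At RPPH1 the other strand held it too, 27 to 31 bases before the first base, in an overlapping match. Searched on both strands, TATAA was present in 20.4% of all 35116 promoter windows of 300 bases. The E-box letters CACGTG were present in 7.26% of the windows and in neither of these. A match or its lack describes these letters only.

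RPPH1 had a peak in the WT list and in neither mutant list. The WT peak ran from 20343040 to 20343409, was 370 bp wide and covered 99.4% of the gene, from base 3 to its last base, 341. It continued 31 bp past the 3′ end of the gene. Its width exceeded that of 92.6% of the WT peaks, whose median was 165 bp. The summit lay at base 98, which is 28.7% of the way along the RNA.

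RMRP had a peak in the 3A list and in the WT list. The 3A peak ran from 35657728 to 35657943 and covered 71.9% of the gene, from base 77 to the last base, 270. The WT peak ran from 35657708 to 35657951 and covered 74.8%, from base 69 to base 270. Both left the 5′ part of the RNA out, 76 bases in 3A and 68 in WT, and both passed the 3′ end, by 22 bp in 3A and 42 bp in WT. The whole 3A peak of 216 bp lay inside the WT peak of 244 bp. The summits fell on the same base in both lists, base 99. Summit positions were not used to choose the genes. Over the 81 3A peaks that shared a position with a WT peak, the summits were 5 bp apart in the median, and 13 coincided.

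SCARNA28 had a peak in all 3 lists. The 3A peak ran from 98881794 to 98881933 (140 bp), the 7A peak from 98881809 to 98881924 (116 bp) and the WT peak from 98881752 to 98881947 (196 bp). They covered 97 of the 194 bases of the gene in 3A, 82 (42.3%) in 7A and 139 (71.6%) in WT, always the 3′ part. Each passed the 3′ end, by 43 bp in 3A, 34 bp in 7A and 57 bp in WT. Both mutant peaks lay inside the WT peak. The summits were at bases 155 in 3A, 151 in 7A and 152 in WT, so all 3 lay within 4 bp. For comparison, the 30 7A peaks that shared a position with a WT peak had summits 6 bp apart in the median, and 13 of them lay within 4 bp. Summits also lay within 4 bp for 35 of the 81 3A peaks shared with WT and 10 of the 33 shared with 7A.

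**Figure D1:**
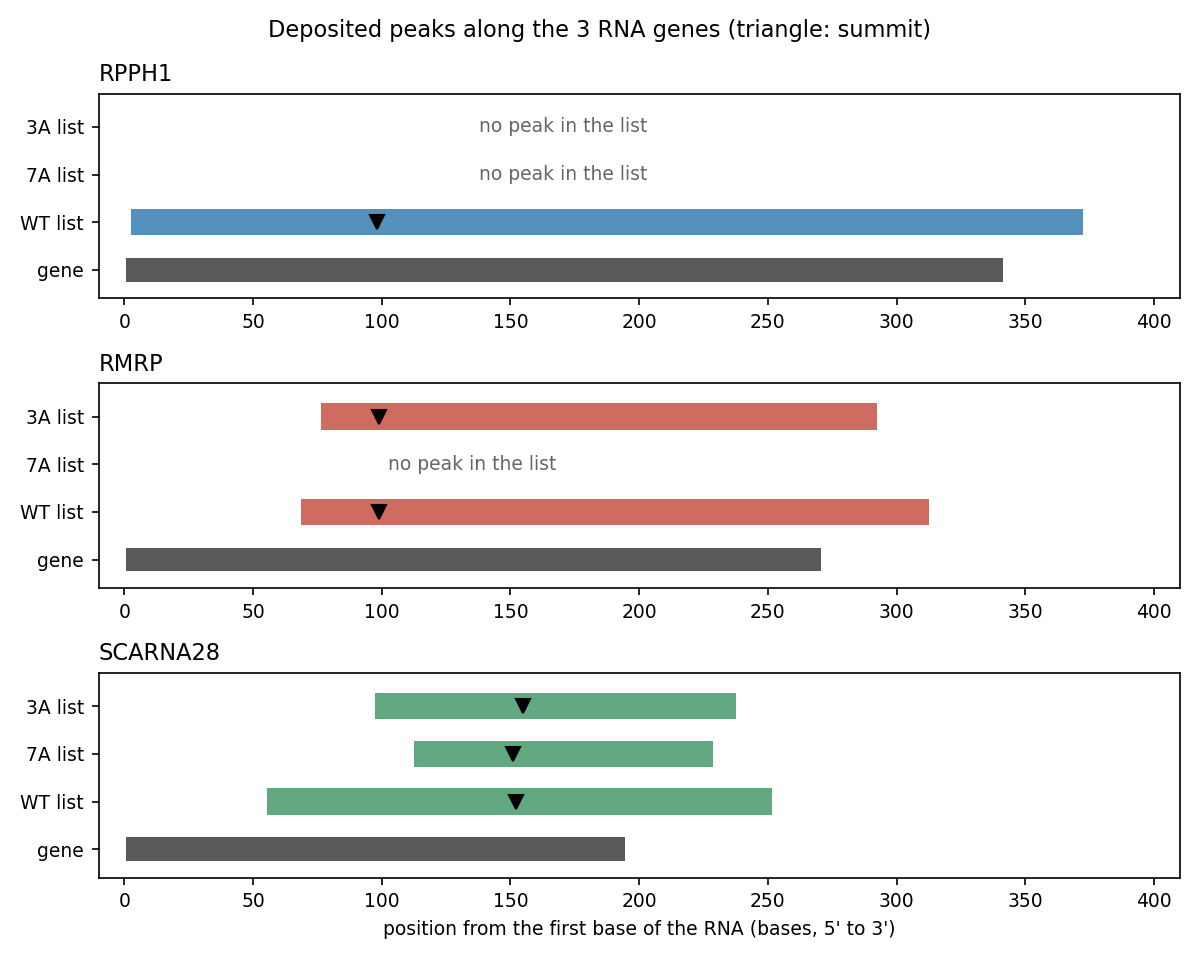
Position of each deposited peak along RPPH1, RMRP and SCARNA28, in bases from the first base of the RNA, for the 3A, 7A and WT lists; dark bars are the genes and triangles the summits. The RMRP summits of 3A and WT share base 99, the SCARNA28 summits lie at bases 155, 151 and 152, and every peak passes the 3′ end of its gene.

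Distances from these genes to the nearest other peak are given without a comparison, as spacing between other peaks was not measured. In the WT list the nearest peak that did not overlap the gene was 111832 bp from RPPH1, in APEX1, which encodes a DNA repair endonuclease. It was 313941 bp from RMRP, in the pseudogene YBX1P10, and 1207105 bp from SCARNA28, in COPS6. No peak lay in PARP2 or CCDC107 next to RPPH1 and RMRP, and in TRRAP no list had a peak besides that of SCARNA28.

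Fold enrichment and −log10 q placed the genes very differently within their lists. The fold enrichment is the authors' ratio for that peak at its summit, and −log10 q grows with the significance the peak caller gave it. RMRP had the lowest fold enrichment of all 103 peaks of the 3A list, 1.35, and the 6th highest −log10 q, 167. In the WT list its fold enrichment was 1.94, with 4 of 2149 peaks lower, and its −log10 q of 1102 ranked 5th. RPPH1 had a fold enrichment of 3.61 in the WT list, with 6.14% of peaks lower, and the 4th highest −log10 q, 1189. The medians of the lists for comparison were a fold enrichment of 5.54 in 3A and 8.11 in WT, and a −log10 q of 31.8 in 3A and 17.8 in WT.

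SCARNA28 had a high fold enrichment as well as a high −log10 q in WT, and a fold below the median beside a −log10 q above it in 7A. In the 3A list its fold enrichment of 9.08 was above 69.9% of the peaks and its −log10 q of 90.9 ranked 14th. In the 7A list the fold enrichment was 5.45, above 23.9% of the peaks, where the median was 9.76, and the −log10 q of 36.6 ranked 26th of 88, above the median of 20.8. In the WT list the fold enrichment of 21.8 was above 97.0% of the peaks and the −log10 q of 386 ranked 7th.

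**Figure D2:**
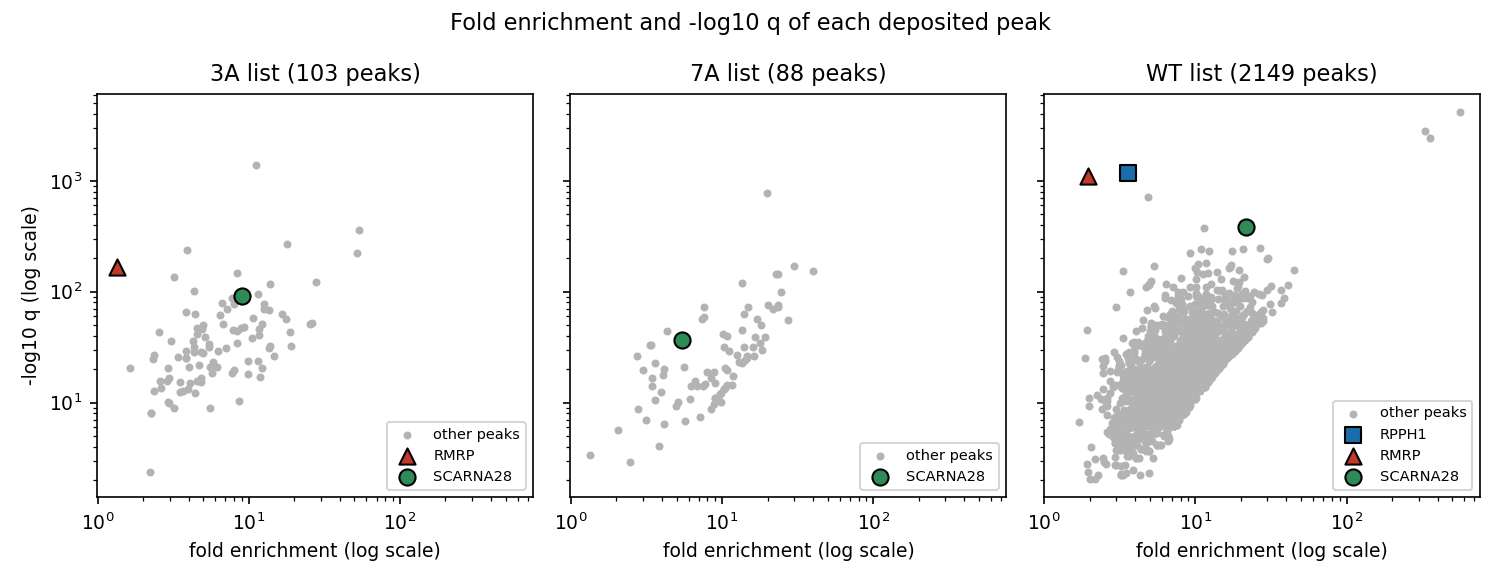
Fold enrichment against −log10 q of every deposited peak, both on log axes, in the 3A, 7A and WT lists, with RPPH1, RMRP and SCARNA28 marked. RMRP sits at the left edge in 3A (1.35) and WT (1.94) with −log10 q values of 167 and 1102, while SCARNA28 lies among the other peaks.

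Ratios of −log10 q to fold enrichment are given as a description only. The genes were chosen by a low fold beside a high −log10 q, so high ratios of RMRP and RPPH1 restate the choice. In the WT list the ratio was highest for RMRP, 567, and then RPPH1, 330, against a median of 1.98. The next were MTRNR2L1, a nuclear gene that resembles a mitochondrial ribosomal RNA gene, with 147, the microRNA gene MIR4449 with 46.1, the linker histone gene H1-4 with 33.1 and the ribosomal protein genes RPLP1 with 31.7 and RPS2 with 26.8. In the 3A list a peak outside genes came first with 124.1, followed by RMRP with 123.5, MTRNR2L1 with 60.4, MIR4449 with 42.6, RPLP1 with 23.5 and HSP90AB1, a chaperone gene, with 17.4. In the 7A list, which had no RMRP peak, MTRNR2L1 led with 39.4, followed by ANXA2, H1-4, ACTB and ZNF316 with 9.65 to 10.1. SCARNA28 ranked 20th in 3A, 10th in 7A and 18th in WT by this ratio.

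The reads behind each peak could be recovered from the deposited columns. In the peak caller MACS2, which the submitters' processing notes name, the p-value at a summit is the Poisson probability of more reads than observed given a background, and the fold enrichment is the ratio of both after adding 1 to each. These 2 relations were solved for each peak. The relation as first planned, with each read counted as 1, gave whole reads for 100% of peaks in 3A but only for 17.0% in 7A and 20.7% in WT. A value of a read was then fitted to each list and strand, after these results were seen, and where several solutions remained the one nearest a whole number was taken. With this, the immunoprecipitate came out as whole reads, within 0.05, for 103 of 103 3A peaks, 88 of 88 7A peaks and 2146 of 2149 WT peaks, where a read counted as 1 in 3A, 0.570 or 0.592 in 7A and 0.631 or 0.634 in WT (plus or minus strand). Over all values of a read that were tried, the median share of whole reads was 17.5% in 3A, 18.2% in 7A and 19.4% in WT. The tolerance had first been 0.02, which 102, 88 and 2145 peaks of 3A, 7A and WT met, and it was widened after RMRP was seen to miss it. At the read numbers of RMRP a whole number carries little information, and the limits set by the deposited digits are given instead. Backgrounds between 1 and 300 also came out whole, within 0.03, for 76.9% to 96.2% of peaks by list and strand. In 3A, with 85.4% (plus strand) and 96.2% (minus strand), the value of a control read was itself fitted to whole backgrounds. That favoured these 2 shares. Backgrounds are called control reads below, also where they were not whole numbers. A value below 1 for a read is what MACS2 gives when it scales the deeper of 2 data sets down to the other, here the immunoprecipitate to its control in 7A and WT and the control to the immunoprecipitate in 3A, where a control read counted as 0.985 or 0.968. Peaks with 1 summit and strand in 2 lists were compared where both gave whole reads. Between 7A and WT this held for 3 of 4 pairs. Over all lists, the control reads of the 2 peaks were the same, within 0.05, at all 19 such pairs. Which libraries served as this control is not given in the sources used here. Per control read, the immunoprecipitate held 0.985 and 0.968 reads in 3A, 1.76 and 1.69 in 7A and 1.59 and 1.58 in WT on the plus and minus strand, so the 7A data were the deepest of the 3 and the 3A data the shallowest.

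RMRP and RPPH1 had the most control reads among the solved WT peaks. Control reads were solved from the fold enrichment and −log10 p, so for genes chosen by a low fold beside a high −log10 q this order restates the choice and is a description only. At the RMRP summit there were 7340 control reads, recovered alike from the 3A and the WT list. At the RPPH1 summit there were 1360 control reads in the WT list. These were the only WT peaks over 1000 control reads, the next had 433, and the median was 3. The immunoprecipitate had 9609 reads at the RMRP summit in 3A and 22475 in WT, and rounding of the deposited values allows 9609 to 9616 in 3A and 22471 to 22475 in WT. At the RPPH1 summit it had 7735 reads in WT, where the median over the list was 51.5.

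Scaled to the depth of the control, the RMRP summit had 9922 immunoprecipitate reads in 3A (95% exact Poisson interval 9725 to 10122) and 14257 in WT (14071 to 14444), beside 7340 control reads (7173 to 7510). The excess over the control was 2582 reads in 3A and 6917 in WT. RPPH1 had 4907 reads in WT (4798 to 5017) beside 1360 control reads (1289 to 1434), an excess of 3547. These intervals cover counting error only, and reads that are copies of 1 molecule would make them too narrow.

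SCARNA28 had far fewer control reads than RMRP and RPPH1, but not few for its lists. Its summit had 17 control reads in 3A, 18 in 7A and 18 in WT, at summits up to 4 bp apart. The list medians were 17 in 3A, 3 in 7A and 3 in WT, and 83.0% of the 7A peaks and 93.2% of the WT peaks had fewer control reads than SCARNA28. At other peaks the solved background was not always a whole number, so these shares compare backgrounds rather than counted reads. The immunoprecipitate had 160 reads in 3A, 180 in 7A and 654 in WT. At the depth of the control these were 162 reads in 3A (95% Poisson interval 138 to 190), 103 in 7A (88.1 to 119) and 412 in WT (381 to 445). The counting intervals of the 3 lists did not overlap. They cover counting error only, without replicates. How often the intervals of other peaks that share a position between lists overlap was not counted, so nothing is read from the lack of overlap here.

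**Figure D3:**
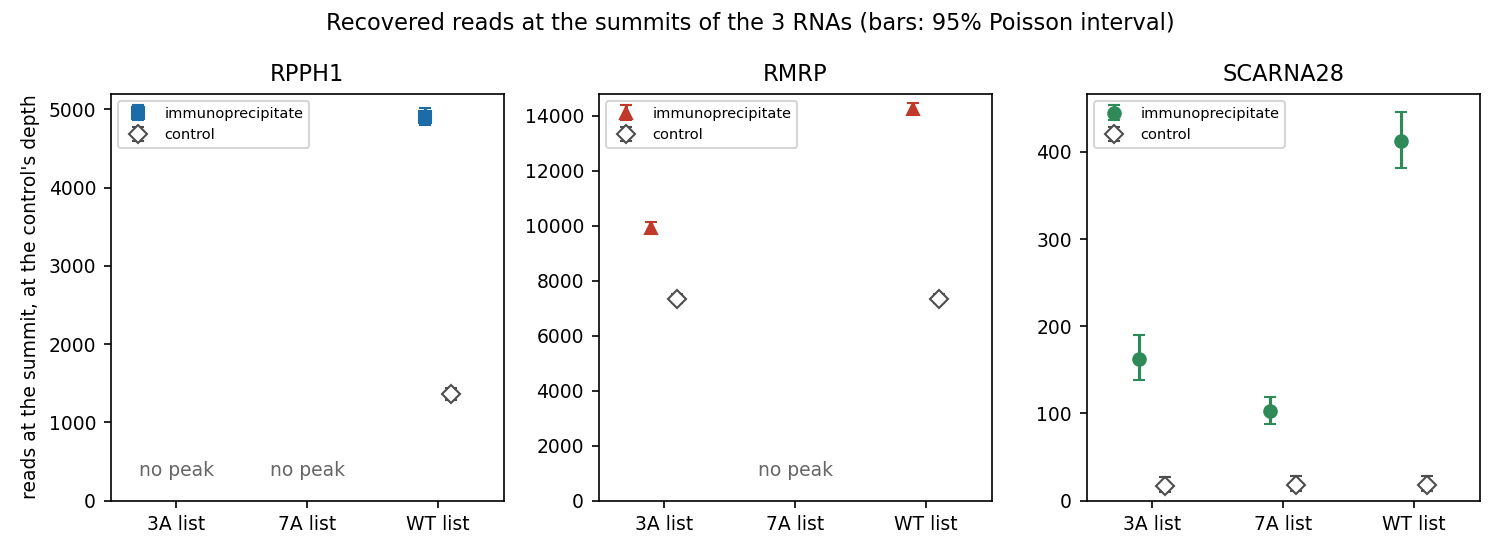
Immunoprecipitate reads at the summit, scaled to the depth of the control, and control reads (open diamonds) for RPPH1, RMRP and SCARNA28 in the 3A, 7A and WT lists; bars are 95% Poisson intervals and cover counting error only. RMRP has 9922 reads in 3A and 14257 in WT over 7340 control reads, and SCARNA28 has 162, 103 and 412 over 17 or 18.

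Set against wild type at the same control depth, RMRP in 3A had 0.696 times the reads of WT, and its excess over the control was 0.373 times that of WT. SCARNA28 had 0.394 times the WT reads in 3A and 0.249 times in 7A, and its excess was 0.369 times that of WT in 3A and 0.214 times in 7A. Over all 78 3A peaks that shared a position with a WT peak and were solved in both lists, the median of this ratio was 0.640 (quartiles 0.471 and 0.938). Over the 27 such 7A peaks it was 0.666 (quartiles 0.437 and 0.981). On reads without subtraction of the control, RMRP lay between the quartiles in 3A, and SCARNA28 lay below the lower quartile in 3A and in 7A. On the excess over the control the 2 genes had nearly the same ratio in 3A, 0.373 for RMRP and 0.369 for SCARNA28. Their difference on the first scale was thus not seen once the control reads, 7340 at RMRP, were subtracted. The excess was not compared over the other shared positions, so whether these ratios are low for the lists was not tested. With 1 list per allele these differences have no replicate check, and the amounts of tagged protein and of each RNA in the cells were not measured, so their part in the ratios was not tested. Only positions called in both lists enter the medians, and all ratios rest on the recovered reads and on 1 control for all lists.

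**Figure D4:**
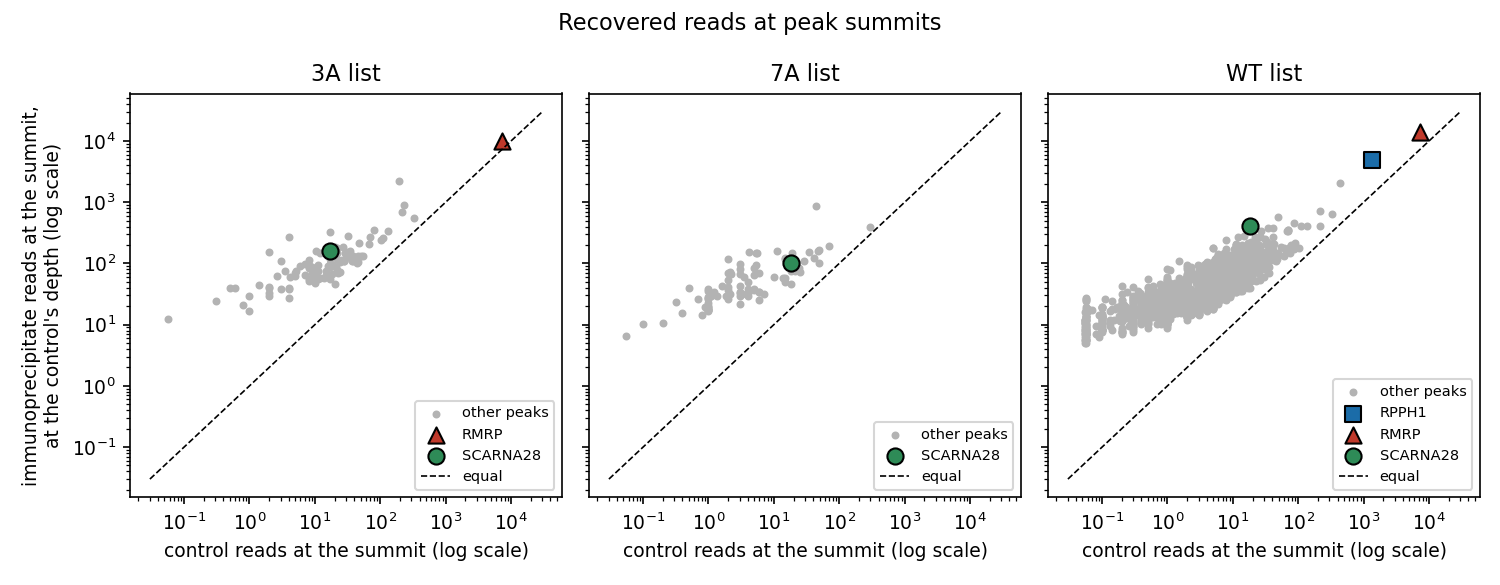
Immunoprecipitate reads at the summit, scaled to the control's depth, against control reads for every solved peak of the 3A, 7A and WT lists, both on log axes; the dashed line marks equal values. RMRP (7340 control reads) and RPPH1 (1360) lie apart at the right, and SCARNA28 (17 or 18) lies within the range of control reads of the other peaks.

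The missing peaks can be bounded under the same relations. If the control at the WT summit and the lowest −log10 p of each list hold there, a RPPH1 summit would have reached that p with 1499 reads in 3A, a fold enrichment of 1.14, and with 2647 reads in 7A, a fold of 1.15. RMRP would have reached it in 7A with 13201 reads, a fold of 1.06. The WT list had folds of 3.61 at RPPH1 and 1.94 at RMRP. The lowest fold in either mutant list was 1.35 in 3A, at RMRP, and 1.34 in 7A. Filters applied to the lists after peak calling are not described in the labels.

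Most other small non-coding RNA genes with a peak lay inside a larger gene. Besides the 3 genes, 3 small RNA genes were overlapped by a 3A peak, 0 by a 7A peak and 17 by a WT peak. All 3 in 3A and 16 of the 17 in WT lay inside a larger gene, as SCARNA28 does, and RPPH1 and RMRP did not. How many of all 3888 small non-coding RNA genes lie inside a larger gene was not counted, so nothing is read from these numbers. The summit was inside the small RNA gene for 1 of the 3 in 3A and 5 of the 17 in WT, and for all 6 peaks of RPPH1, RMRP and SCARNA28. The 3 genes were chosen partly by the share of the gene their peaks covered, which favours a summit inside. This contrast is therefore a description only. The highest control level of the other small RNA genes was 214 reads, in MIR4449. It lies in the long non-coding gene DANCR and had 677 immunoprecipitate reads in 3A and 1138 in WT.

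Genes related to the 3 RNAs were counted in lists. Of 28 other SCARNA genes only SCARNA9, inside CEP295, had a WT peak, with a fold enrichment of 6.16, a −log10 q of 13.9 and 57 reads over 5 control reads, and no 3A or 7A peak lay in any. The 3 annotated pseudogenes of RPPH1 and RMRP had 0 peaks in every list, so no peak was placed at an annotated copy. Of 28 other small RNA genes made in quantity, among them RN7SK, RN7SL1, TERC and the vault, Y and spliceosomal RNAs, 0 had a peak in any list. Of all small non-coding RNA genes, 0.129% had a peak in 3A, 0.0257% in 7A and 0.514% in WT. Lists of 28 genes would thus rarely hold one, and nothing is read from the 0. The WT share of the other SCARNA genes, 3.57%, rests on 1 gene. Many of the genes made in quantity have near-identical copies, and whether the authors' alignment kept such reads was not tested.

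Genes of the partner proteins had 0 peaks in 3A and 0 in 7A for each list that follows, where 0.142% of all genes had a peak in 3A and 0.115% in 7A, so lists of this size would rarely hold one. The difference from WT was not tested. Of 11 genes of the protein subunits of ribonucleases P and MRP, 1 had a WT peak, POP7, with a fold of 10.8 and 19 reads. Of 17 genes of Cajal body and box H/ACA or C/D particle proteins, 9 had one. The highest −log10 q among them were 50.7 at NOLC1, a nucleolar and Cajal body phosphoprotein, 47.8 at NHP2 and 42.1 at DKC1, both core proteins of box H/ACA particles, and 43.5 at FBL, the methyltransferase of box C/D particles. The others were NOP56, SNU13, GEMIN5, NOP58 and NOP10, with 8.43 to 39.6. Of 4 genes of La and Ro family RNA-binding proteins 1 had a WT peak, SSB, the La protein that binds the ends of polymerase III transcripts, with a fold of 15.3. Read against the 2.75% of all genes with a WT peak, the shares were 9.09% for the subunits and 52.9% for the particle proteins. The level of these messages in the cells was not measured, and its part in these counts was not tested.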

How the data were processed

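Peak lists of FLAG eCLIP were analysed for 3 doxycycline-treated groups, taken from the titles. MACS2, cutadapt and BWA with the build hg38 were used per the submitters' processing notes, which give no settings, control or pooling of replicates in the form seen here. The deposited lists give for each peak a fold enrichment (a ratio), a −log10 p and a −log10 q of the authors' caller, a score of 10 times −log10 q, and the offset of the summit. Depth per sample is unknown.

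Positions were made 1-based, and overlaps with GRCh38.p14 RefSeq spans needed 1 bp. Pileup and background were solved from fold and −log10 p. The value of a read was fitted on peaks with −log10 p under 120 and pileups under 150, over values from 0.4 to 1.2. Fitting that value, separating the strands, leaving out backgrounds under 0.02, choosing among solutions by wholeness and the tolerance of 0.05 were all decided after seeing the data. The planned condition, whole pileups with unscaled reads, was met in 3A only. In 3A the value of a control read was fitted as well, to give whole backgrounds, which was not planned. Tested on 800 simulated peaks at each of 2 values, the solution recovered 100% of the read numbers. The 800 held the same peaks on the plus and on the minus strand. Simulated backgrounds included neither values under 1 nor any as high as at RPPH1 and RMRP, so the 100% does not cover such peaks. The members and gene lists were chosen with earlier results of these data known. Named genes were the 3 RNAs, genes under or next to their peaks, listed genes with a peak, and the 5 hosts of highest −log10 q over fold. The result of 1 further gene list is not reported here. No tests were made, for want of replicates. Python 3.11.15, NumPy 2.4.6, SciPy 1.17.1 and pandas 2.3.3 were used.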

Additional observations from a re-analysis of the deposited data

How the results depend on the processing

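Of 97 alternative values of 46 results, 81 stayed within their counting interval or, for counts, within 1.5 times. Many of the 81 could not have moved, so their number does not measure robustness. Related gene lists with 0 peaks stay at 0 under alternatives that only remove peaks. A −log10 q of at least 5 could not remove a peak of the 3 RNAs, whose lowest −log10 q was 36.6. A minimum fold, set at each list's own median, left 1 peak of the 3 RNAs in 3A, 0 in 7A and 1 in WT. With the gene widened by 50 bp on each side the covered share was 58.4% for RMRP in 3A, and in WT 83.9% for RPPH1, 65.9% for RMRP and 64.3% for SCARNA28. Without the peaks at MYC and PGK1, 99.95% of WT peaks had a lower −log10 q than RPPH1 and 99.91% a lower one than RMRP. The read recovery and its 4 alternatives were chosen after seeing the data. With each read counted as 1, whole reads came out for 17.0% of peaks in 7A and 20.7% in WT, and for 100% in 3A. The tolerance of 0.02 in place of 0.05 lowered the share to 99.0% in 3A and 99.8% in WT and left it at 100% in 7A, and RMRP is outside it in both lists. With no 1 added in the fold, whole reads came out for 24.3% of peaks in 3A, 25.0% in 7A and 16.2% in WT. With both strands fitted together it was 54.5% in 7A and 56.4% in WT. No paired analysis was possible because every deposited list stands for a whole group, without separate replicate values, and for the same reason none could be left out.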
